A study of Mus musculus with 9 samples.

Results

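Peaks of the chromatin protein DPPA4 were examined in 2 windows of the mouse genome, each 5 Mb long, in which the peak lists of 3T3 fibroblasts hold a larger share of their peaks than the lists of E14 and P19 cells. The windows run from 20 to 25 Mb on chromosome 12 and from 45 to 50 Mb on chromosome 6 (mm9 assembly). They were chosen by the measured share of peaks in 3T3 against the other lines, and every peak that starts inside them is a member. There were 829 members among 229345 peaks in all, 325 in the chromosome 12 window and 504 in the chromosome 6 window. The share, and with it the presence of peaks in the 3T3 libraries, is therefore given as a description without a test.

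The 6 lists come from chromatin immunoprecipitation with an antibody against DPPA4 followed by sequencing (ChIP-seq), with 2 libraries per cell line. E14 is a mouse embryonic stem cell line, kept without feeder cells in 2i medium with serum on gelatin, and P19 is an embryonal carcinoma line grown in serum. 3T3 is a fibroblast line grown in serum, and these cells carried Dppa4 as an ectopic gene. The promoter, expression level and clonality of the ectopic gene are not stated in the labels used. The list lengths were 15462 and 17540 peaks in 3T3, 61693 and 43443 in E14, and 40011 and 51196 in P19. The read depth behind the lists is unknown, so the absence of a peak does not tell lack of binding from too few reads. The 3 input libraries, 1 per line, were not analysed here.

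DPPA4 is a nuclear protein with a SAP domain, a fold found in many DNA-binding proteins. It acts as a partner of the related protein DPPA2, and both are known as markers of pluripotent cells and early embryos that associate with chromatin at developmental gene promoters. Fibroblasts normally lack DPPA4, and the 3T3 cells here carried an ectopic Dppa4 gene. How far the peaks of the 3T3 lists reflect the supplied protein was not tested. No annotation or sequence of the mm9 assembly was used here, and the members are described by position, without gene names or bases.

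In the chromosome 12 window the 3T3 libraries held 50 and 35 peaks, the E14 libraries 77 and 56, and the P19 libraries 49 and 58. As a share of the list this was 0.323% (Wilson 95% interval 0.245 to 0.426) and 0.20% (0.144 to 0.277) in 3T3. The share was 0.125% (0.0999 to 0.156) and 0.129% (0.0993 to 0.167) in E14, and 0.122% (0.0927 to 0.162) and 0.113% (0.0877 to 0.146) in P19. Both 3T3 libraries lay above the other 4, but the interval of 3T3 replicate 2 met those of the other lines. The means were 0.261 ± 0.0876% in 3T3, 0.127 ± 0.0029% in E14 and 0.118 ± 0.0065% in P19 (SD, n = 2 each). The 3T3 mean was 2.14-fold the mean of the other 4 libraries. It was 2.64-fold without 3T3 replicate 2 and 1.63-fold without 3T3 replicate 1. The intervals take the peaks as independent of each other and cover no error beyond counting.

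In the chromosome 6 window the 3T3 libraries held 62 and 57 peaks, the E14 libraries 107 and 87, and the P19 libraries 91 and 100. The share was 0.401% (0.313 to 0.514) and 0.325% (0.251 to 0.421) in 3T3. It was 0.173% (0.144 to 0.21) and 0.20% (0.162 to 0.247) in E14, and 0.227% (0.185 to 0.279) and 0.195% (0.161 to 0.237) in P19. Again both 3T3 libraries lay above all others, with less distance between the replicates than on chromosome 12. The interval of 3T3 replicate 2 met that of P19 replicate 1. The means were 0.363 ± 0.0537% in 3T3, 0.187 ± 0.019% in E14 and 0.211 ± 0.0227% in P19 (SD, n = 2 each), and the 3T3 mean was 1.82-fold that of the other 4.

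Pooled over the rest of each chromosome, the 3T3 share departed less from that of the other lines. Outside the window, chromosome 12 held 3.58 ± 0.024% of the 3T3 peaks (SD, n = 2) and 3.91 ± 0.0538% of the peaks of the other libraries (SD, n = 4), a ratio of 0.916. The 3T3 range of 3.56% to 3.60% lay below the range of 3.87% to 3.99% in the other lines. Outside its window, chromosome 6 held 5.23 ± 0.273% and 4.91 ± 0.341%, a ratio of 1.07, and the 3T3 range of 5.03% to 5.42% met the range of 4.52% to 5.19% in the other lines. Of 445 bins of 5 Mb with at least 10 3T3 peaks on average, the chromosome 12 window had the highest ratio and the chromosome 6 window ranked 4. The median ratio over these bins was 1.02. Both 3T3 shares lay above the other 4 in 123 of the 445 bins, so such a separation alone was common. With the windows included, it was seen in 3 bins of chromosome 12 and 9 bins of chromosome 6. On chromosome 6 these included the bins from 110 to 115 Mb (ratio 1.55, rank 16), from 80 to 85 Mb (1.49, rank 23) and from 85 to 90 Mb (1.42, rank 31). The neighbours differed between the chromosomes. From 15 to 20 Mb on chromosome 12 the ratio was 1.44 (rank 28), and from 25 to 30 Mb it was 1.13. Above the chromosome 6 window, from 50 to 55 Mb, it was still 1.73 (rank 7), and below the window, from 40 to 45 Mb, it was 1.03.

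**Figure D1:**
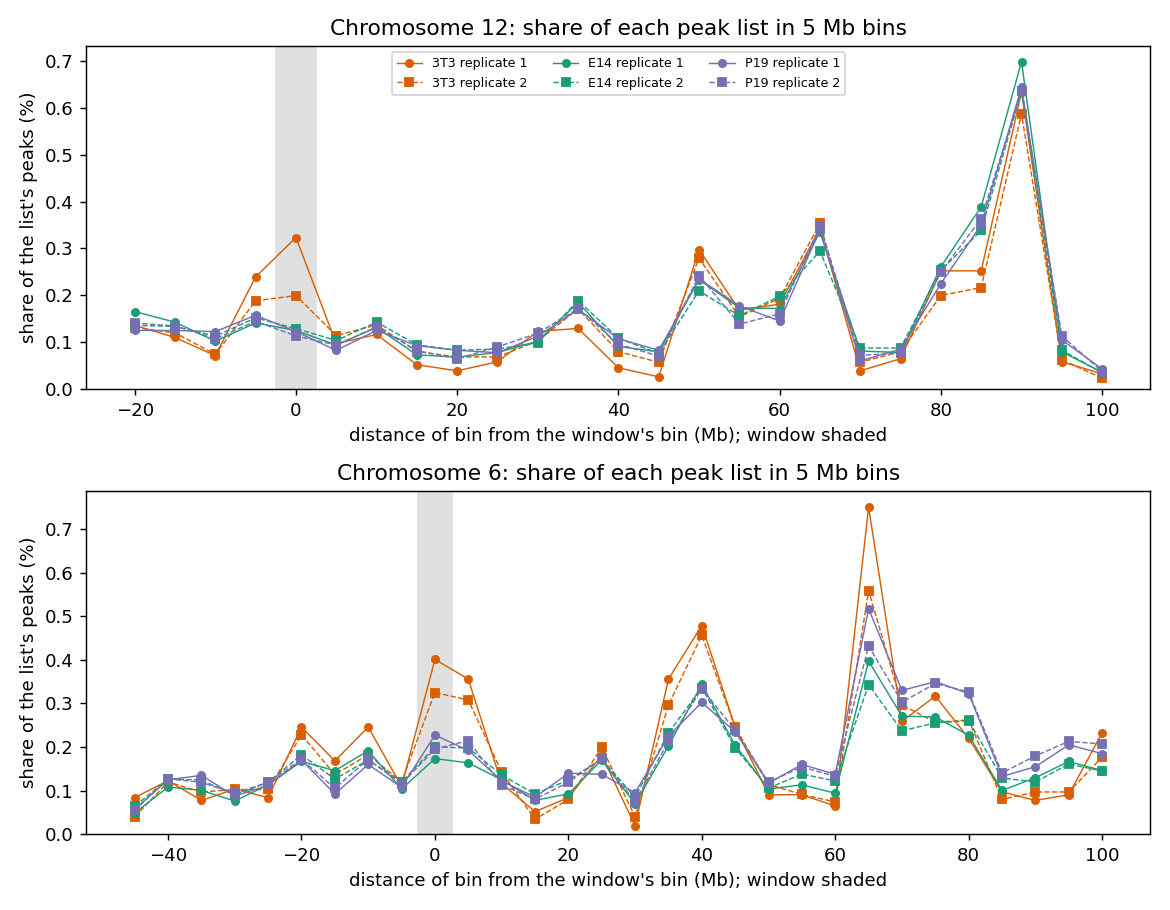
Share of each peak list (y axis, %) in consecutive 5 Mb bins of chromosome 12 (top) and chromosome 6 (bottom), by distance of the bin from the window's bin (x axis, Mb). Lines and points are the 6 libraries, and the grey band marks the window, in which both 3T3 libraries (orange) lie above the other 4.

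The excess of 3T3 shares was much smaller in lists of equal length. When only the 15462 highest-scoring peaks of each library were kept, as many as the shortest list holds, the chromosome 12 window held 50 and 35 peaks in 3T3, 33 and 35 in E14, and 37 and 36 in P19. The 3T3 replicate 2 value was then no higher than E14 replicate 2 and lower than both P19 values, and the ratio of means was 1.21. The chromosome 6 window held 62 and 55 peaks in 3T3, 53 and 49 in E14, and 47 and 50 in P19, a ratio of 1.18. There both 3T3 values still lay above the other 4, by as little as 2 peaks. Among the 445 bins ranked in this way the windows fell from places 1 and 4 to places 147 and 160. The quartiles over the bins were then 0.718 and 1.31. With the best-scoring 50% of each list, where the lists keep their unequal lengths, the ratios were 2.15 and 1.91.

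Members in both windows ranked above the other peaks of their chromosome in all 6 libraries. The windows were chosen by shares of lists of unequal length, which can favour bins with few weak E14 and P19 peaks. The ranks of all lines, and the widths and overlaps given below, are therefore a description as well. Scores are those of the authors' peak caller and were turned into percentiles within each list (100 for the strongest), since their scale is not named. The lists differ in length, so a percentile stands for a different depth of the list in each library, and percentiles of different lines are set side by side without a comparison. In the chromosome 12 window the median percentile was 61.3 and 78.8 in 3T3, 65.4 and 73.0 in E14, and 86.8 and 89.4 in P19. The rest of chromosome 12 had medians between 46.7 and 51.6. The difference within the list was 14.6 and 30.7 percentile points in 3T3, 15.7 and 22.5 in E14, and 35.9 and 37.8 in P19. The replicates of 3T3 thus lay far apart. Peaks above percentile 90 made up 16.0% and 34.3% of the 3T3 members, 23.4% and 17.9% in E14, and 34.7% and 46.6% in P19, against 7.99% to 11.9% on the rest of chromosome 12.

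In the chromosome 6 window the median percentile was 70.1 and 68.0 in 3T3, 71.3 and 69.4 in E14, and 64.7 and 70.3 in P19. The rest of chromosome 6 had medians between 49.2 and 53.4. The differences ran from 14 to 21.1 percentile points over the 6 libraries, with both 3T3 libraries at 16.7. Outside the dense runs described below, the 3T3 medians were 56.3 and 62.3. In P19 replicate 2 the difference was 12.4 without peaks at the tied score of 3100 or above, against 21.1 with them, and 15 of its 100 members had such a score. Peaks above percentile 90 made up 16.1% and 15.8% of the 3T3 members, 29.9% in each E14 library, and 34.1% and 35.0% in P19. On the rest of chromosome 6 these shares were between 10.9% and 11.9% in all libraries. In each library, members of this window thus reached the top of the list more often than the other peaks of the chromosome.

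**Figure D2:**
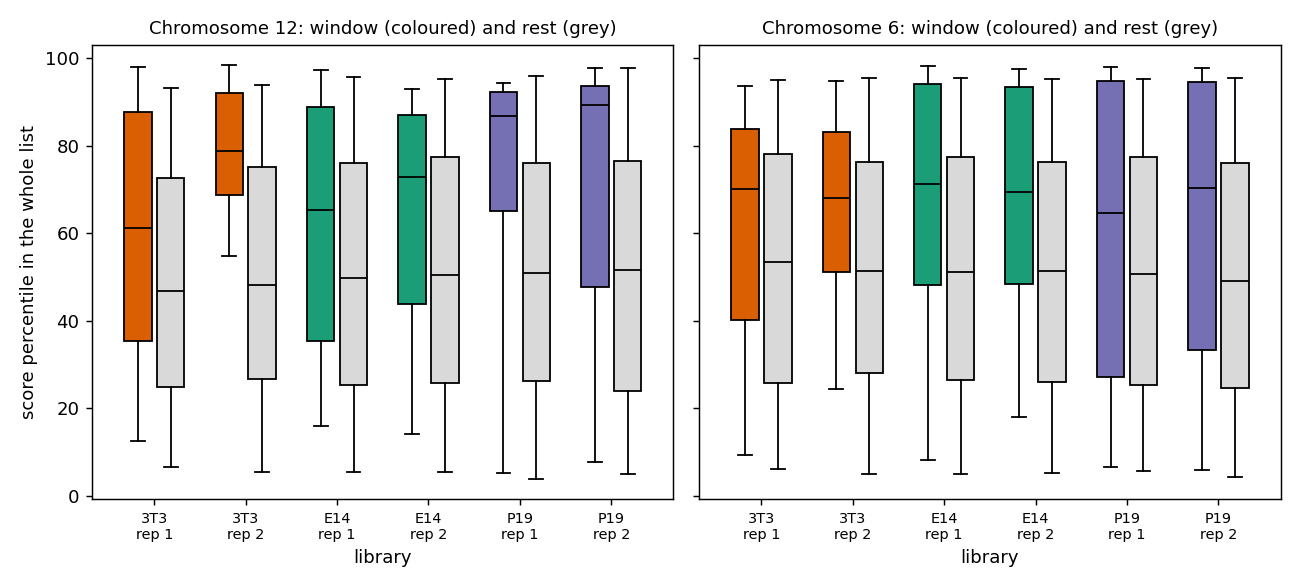
Score percentile within the whole list (y axis) of peaks in the window (coloured) and on the rest of the chromosome (grey), by library (x axis), for chromosome 12 (left) and chromosome 6 (right). Boxes show the median and quartiles and whiskers the percentiles 5 and 95 of the peaks; the median in the window is above the grey median in all 12 pairs, by 14 to 37.8 points.

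Members were also wider than the other peaks of their chromosome in all 6 libraries. In the chromosome 12 window the median width was 402 and 1330 bp in 3T3, 526 and 1043 bp in E14, and 908 and 968.5 bp in P19. On the rest of chromosome 12 it was 377 and 855 bp, 399 and 765 bp, and 449 and 525 bp. The excess in 3T3 replicate 1 was 25 bp, against 475 bp in replicate 2. Among peaks that overlap a peak of the partner library it was 2.5 and 304.5 bp, so the excess in 3T3 replicate 1 was near 0. In the chromosome 6 window the excess was 202 and 269 bp in 3T3, 203.5 and 207 bp in E14, and 122 and 133 bp in P19. For 3T3 replicate 2 on chromosome 6 it was 168 bp among peaks that overlap a peak of replicate 1.

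In all 6 libraries, members were found again in the partner library of the line more often than the other peaks of their chromosome. In the chromosome 12 window 96.0% of the 3T3 replicate 1 members and 100% of the 3T3 replicate 2 members shared at least 1 bp with a peak of their partner library. The windows were chosen by the 3T3 share against the other lines, so the values of all lines are a description. On the rest of the chromosome the shares were 87.7% and 62.8%. In the chromosome 6 window they were 96.8% and 93.0%, against 85.0% and 69.1%. The E14 and P19 members showed shares between 74.1% and 96.4%, against 64.3% to 87.8% on the rest of both chromosomes.

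To compare presence between lines, overlapping peaks of the 6 lists were merged into union regions, which gave 77706 regions in the genome. The chromosome 12 window held 84 of them and the chromosome 6 window 126. Both 3T3 libraries had a peak in 35 regions (41.7%, Wilson interval 31.7 to 52.3) of the first and 50 regions (39.7%, 31.6 to 48.4) of the second. The share over all regions of the genome was 14.2%, and it was 12.9% and 16.1% on the rest of chromosomes 12 and 6. Because the windows were chosen for their 3T3 peaks, nothing is read from this difference, nor from the other patterns that count 3T3 peaks. With lists of equal length the shares were 76.1% and 65.3%, and 35.0% over all regions.

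Most 3T3 members lay in regions that also had peaks in both E14 and both P19 libraries. A peak in all 6 libraries was found in 31 regions (36.9%, 27.4 to 47.6) of the chromosome 12 window and 40 regions (31.7%, 24.3 to 40.3) of the chromosome 6 window. This was 9.19% of all regions of the genome, 8.83% on the rest of chromosome 12 and 10.3% on the rest of chromosome 6. These regions held 44 of the 50 and 31 of the 35 3T3 members on chromosome 12 (88.0% and 88.6%). On chromosome 6 they held 47 of the 62 and 43 of the 57 (75.8% and 75.4%). Over the genome such regions held 58.8% and 42.7% of the 3T3 peaks, so in replicate 1 a majority was usual. The shares were 65.3% and 45.2% on the rest of chromosome 12, and 56.6% and 45.1% on the rest of chromosome 6. Peaks in both 3T3 libraries and in no E14 or P19 library made 1 region (1.19%) on chromosome 12 and 5 regions (3.97%, 1.71 to 8.95) on chromosome 6, against 0.972% of all regions. The share of regions in all 4 E14 and P19 libraries without any 3T3 peak was 10.7% (9 regions) and 16.7% (21 regions), against 19.1% of all regions.

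The other regions divide as follows. On chromosome 12, 3 regions (3.57%) had peaks in both 3T3 libraries and in some of the E14 and P19 libraries, against 3.07% on the rest of the chromosome. Another 2 had a peak in 1 of the 3T3 libraries. Of these, 1 also had an E14 or P19 peak (1.19%, against 7.23%) and 1 did not (1.19%, against 2.00%). Another 6 (7.14%) had peaks in both other lines but not in all 4 libraries, against 16.0% on the rest of the chromosome. E14 alone had 23 (27.4%, against 28.3%) and P19 alone 9 (10.7%, against 15.0%). On chromosome 6 the counts were 5, 6, 15, 20 and 14. The regions of E14 alone and P19 alone were weak, with median percentiles of at most 28.0 in any library of either window. Such regions were weak on the rest of both chromosomes too, with medians of 18.3 to 25.1.

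**Figure D3:**
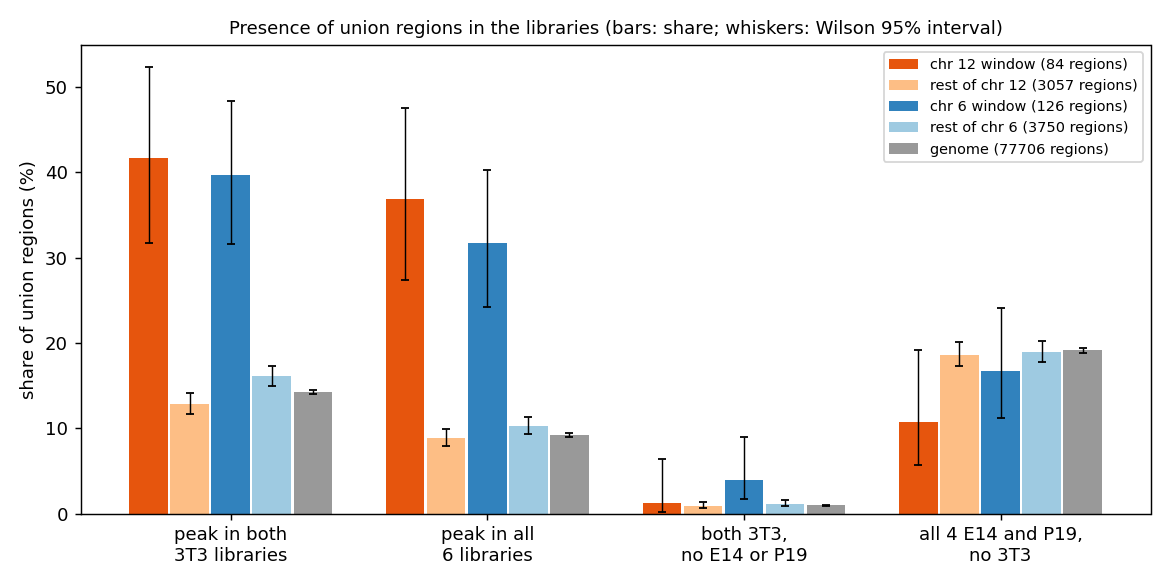
Share of union regions (y axis, %) with each pattern of presence (x axis), in the windows, on the rest of their chromosomes and in the genome. Bars give the share and whiskers its Wilson 95% interval; regions with a peak in all 6 libraries make up 36.9% and 31.7% of the windows against 9.19% of the genome.

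Most 3T3 members of the chromosome 12 window lay in separate regions found in all libraries. Their median percentiles were 81.0 and 79.1 in 3T3, with ranges of 23.5 to 99.8 and 36.5 to 99.7. For such regions on the rest of the chromosome the medians were 68.9 and 76.8. The 31 regions of the window had a median width of 1469 bp, with quartiles of 1377 and 1682 bp. The quartiles were 1111.5 and 1717.5 bp for the 270 such regions on the rest of the chromosome. The gaps between them had a median of 131 kb, with quartiles of 115 and 177 kb, against 141 kb with quartiles of 63.5 and 363 kb elsewhere on chromosome 12. Of 30 gaps, 26 lay between 50 and 200 kb (86.7%), against 112 of 269 (41.6%) on the rest of the chromosome. That interval was set after the gaps had been seen. The longest gap was 715 kb, above the region that ends at 21118773.

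Each 500 kb step of the chromosome 12 window held between 3 and 7 peaks in the 3T3 libraries. No step stood out in 3T3: the fullest was that from 22.5 to 23 Mb with 7 peaks in replicate 1, and that from 21 to 21.5 Mb with 5 in replicate 2. The step from 21 to 21.5 Mb was also the fullest in E14 replicate 1, with 11 peaks. The 3T3 libraries differed mainly in how sites were divided into peaks. In 12 of the 31 regions 3T3 replicate 1 had 2 or more peaks, whereas replicate 2 had a single peak in all 31. The replicates differed in the same way elsewhere. On the rest of chromosome 12, replicate 1 had 2 or more peaks in 75 of 270 shared regions and replicate 2 in 14. In the genome it was 1553 and 291 of 7143. With peaks less than 5 kb apart joined, the window held 36 and 34 in 3T3, and the ratio to the other lines was 1.86.

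**Figure D4:**
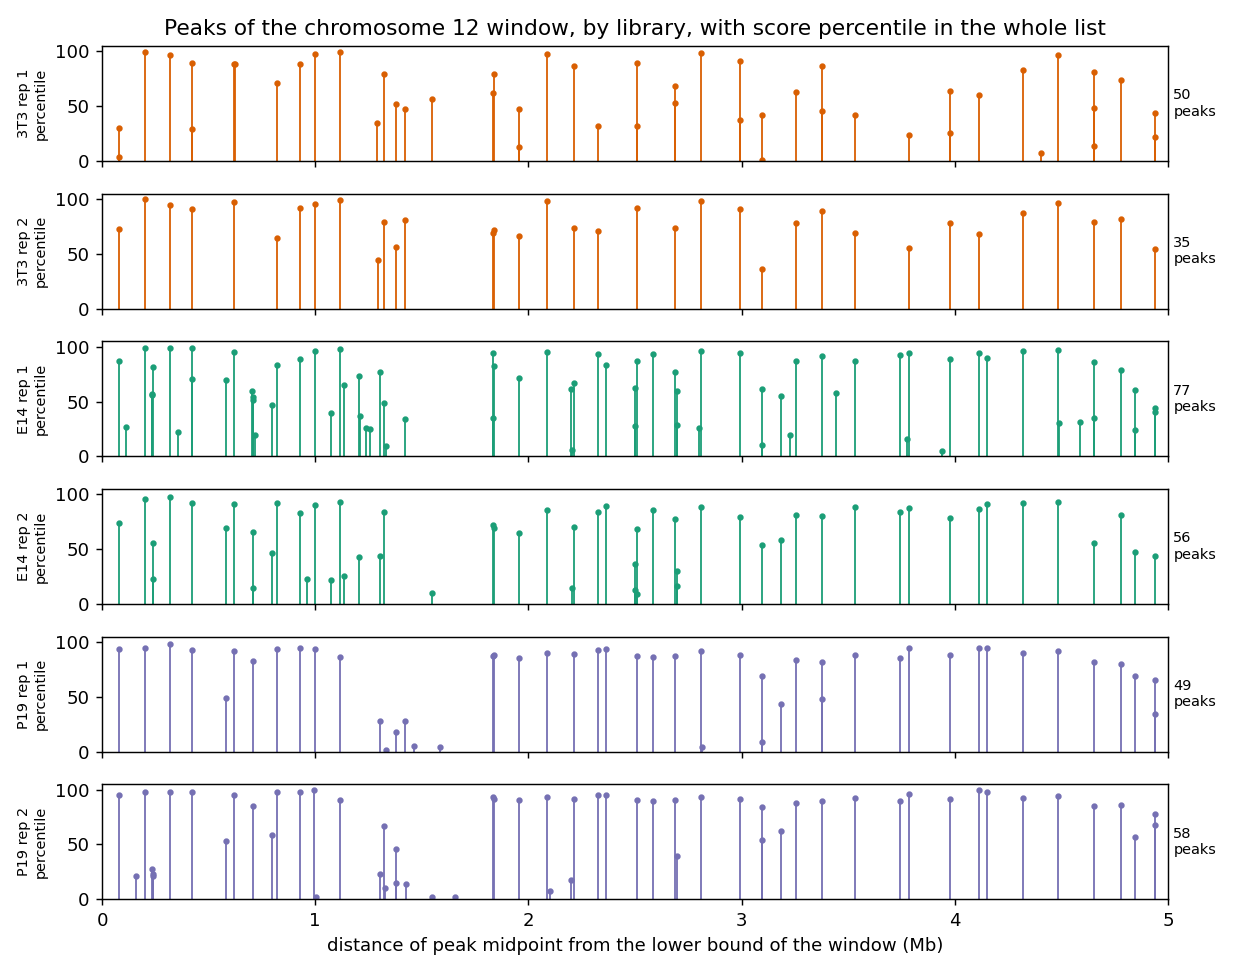
Peaks of the chromosome 12 window in each library (rows), by distance of the peak's midpoint from the lower bound of the window (x axis, Mb) and by score percentile (height, y axis). The 50 and 35 3T3 peaks (orange) are spread over the window at positions that recur in the E14 (green) and P19 (violet) rows, which hold further, mostly lower peaks.

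The strongest 3T3 member lay on chromosome 12 from 20201970 to 20203698. It scored 1749 and 2507 in 3T3, 2136 and 952 in E14, and 2148 and 3100 in P19, which put it at percentiles 99.8 and 99.7, 99.1 and 95.3, and 94.4 and 97.8. It was also the first of the regions present in all libraries. The next 3T3 members, from 21116962 to 21118773 and from 22810640 to 22812447, stood at percentiles 99.2 and 99.1, and 98.5 and 98.4. In P19 the first of these stood at 86.5 and 90.7. Among regions of all 6 libraries the next places went to the one from 20317509 to 20319254, with 96.6 and 94.6 in 3T3 and 97.2 to 98.9 in the other libraries, and to the one from 20995732 to 20997350. The latter scored 728 and 1048 in 3T3, 1194 and 600 in E14, and 1948 and 3153 in P19.

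A single region of the chromosome 12 window belonged to both 3T3 libraries alone, from 21291676 to 21292460. It scored 74.7 and 130.15, percentiles 34.7 and 44.3, below the medians of 81.0 and 79.1 of the shared sites, some of which ranked lower. Strong E14 and P19 sites without a 3T3 peak were also present. The first, from 24151127 to 24152097, scored 665 in both E14 libraries and 2283 and 3100 in P19. The others lay from 22363210 to 22364357, at percentiles between 83.4 and 95.3, and from 22585394 to 22586012, between 85.4 and 93.0. The 9 regions of this kind had a median width of 880 bp, narrower than the shared ones. The same held on the rest of chromosome 12 (877 against 1387 bp), and merging peaks of more lists can by itself widen a region.

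In the chromosome 6 window the 3T3 members lay almost wholly above 47 Mb. Between 45 and 47 Mb the 3T3 libraries held 1 and 2 peaks, the E14 libraries 14 and 13, and the P19 libraries 11 and 12. The lower 40% of the window therefore contributed almost nothing to the 3T3 share, although the E14 and P19 peaks there had median percentiles of 61.0 to 80.8. From the lower bound, the stretch without any peak was 1995 kb in 3T3 replicate 1 and 1527 kb in replicate 2. The longest stretch without a peak was 360 to 453 kb in the other libraries. Of the 15 regions there, 9 had peaks in all 4 E14 and P19 libraries and none in 3T3.

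The step from 47.5 to 48 Mb was the fullest of the window in all 6 libraries, with 35 and 30 peaks in 3T3, 37 and 30 in E14, and 36 and 37 in P19. The counts of the 3 lines were alike there although the 3T3 lists are much shorter. Much of it came from 2 neighbouring runs of closely set, wide regions (5 or more regions with gaps of at most 5 kb), from 47596621 to 47636942 and from 47687058 to 47728743. They spanned 40.3 and 41.7 kb and lay 50.1 kb apart. Together they held 22 and 18 of the 3T3 members (35.5% and 31.6%), 21 and 16 in E14 (19.6% and 18.4%), and 24 and 23 in P19 (26.4% and 23.0%). Of their 17 regions, 15 had a peak in all libraries. A further, weaker run, from 48408057 to 48415841, held no 3T3 peak.

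Within the runs the 15 regions shared by all libraries stood at median percentiles of 77.5 and 75 in 3T3, 98.2 and 94.6 in E14, and 95.2 and 95.5 in P19. The 25 shared regions of the window outside the runs had medians of 81.3 and 82.8 in 3T3, 80.1 and 83.3 in E14, and 77.6 and 79.5 in P19. The runs were thus near the top of the E14 and P19 lists, while in 3T3 they ranked no higher than the shared regions around them. Their median width was 3708 bp, against 1334 bp outside. All 3T3 members outside the 3 runs had median percentiles of 56.3 and 62.3, against 53.4 and 51.3 on the rest of chromosome 6. Runs on the rest of the chromosome were not left out of these comparisons. The median widths of these members were 463.5 and 1050 bp, against 433.5 and 923 bp. Outside the runs the E14 medians were 69.5 and 62.2 and the P19 medians 61.0 and 67.9, against 49.2 to 51.3 on the rest of the chromosome. Without the peaks of the 3 runs the ratio of the 3T3 share to that of the other lines was 1.65, against 1.82 with them. With peaks less than 5 kb apart joined it was 1.40, from 31 and 33 joined peaks in 3T3, 72 and 63 in E14, and 51 and 63 in P19.

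**Figure D5:**
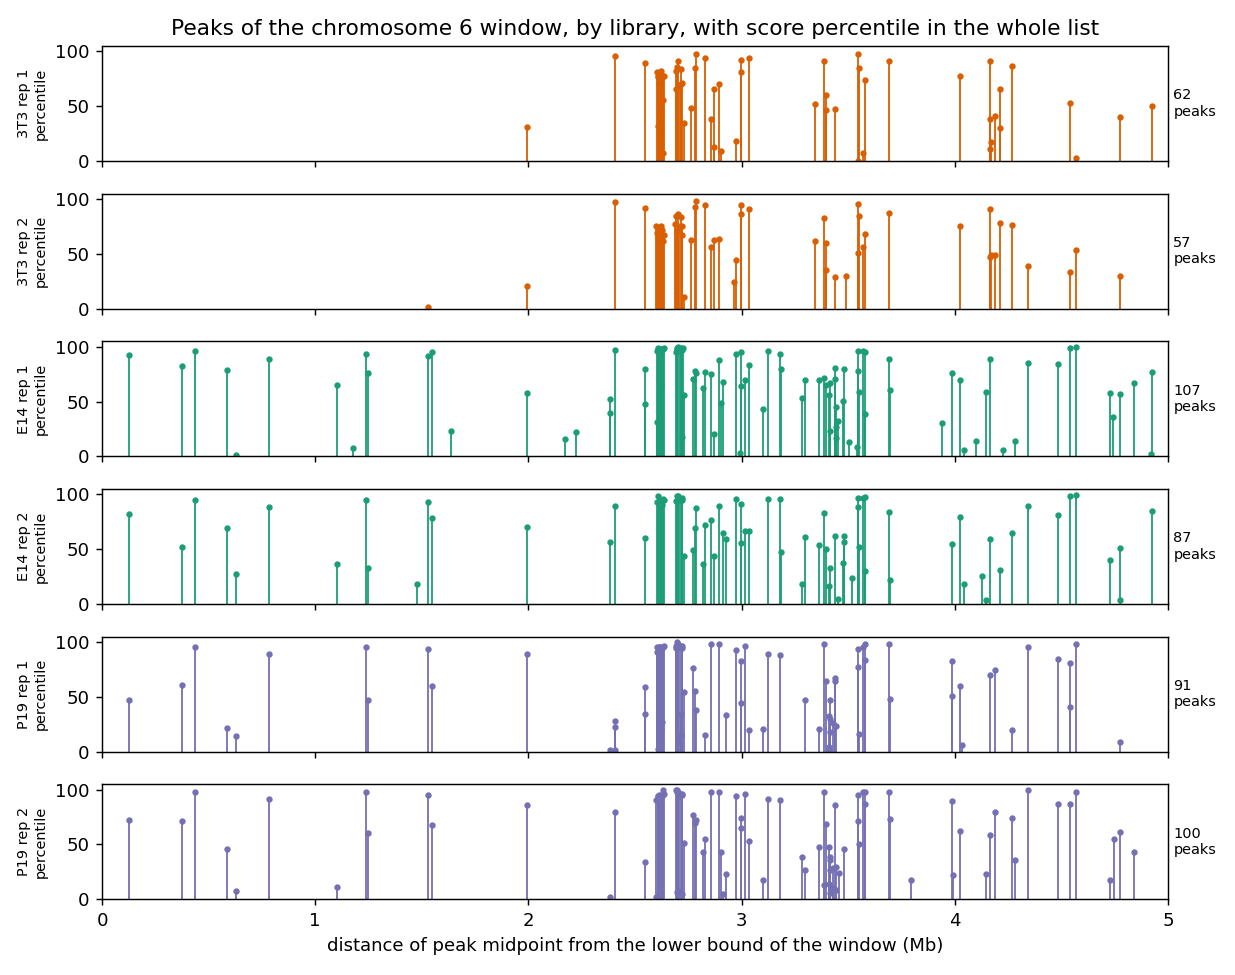
Peaks of the chromosome 6 window in each library (rows), by distance of the peak's midpoint from the lower bound of the window (x axis, Mb) and by score percentile (height, y axis). The 3T3 rows (orange) hold 1 and 2 peaks in the first 2 Mb, where E14 (green) and P19 (violet) hold 11 to 14, and all rows are densest between 2.5 and 3 Mb.

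The strongest 3T3 members of the chromosome 6 window lay outside the runs. The first, from 47785337 to 47786736, scored 749 and 1608 in 3T3, at percentiles 97.6 and 98.6. It scored 310 and 504 in E14 (75.6 and 87.6) and 95.7 and 307 in P19 (38.2 and 72.2). The second, from 48543199 to 48544743, stood at 97.7 and 95.8 in 3T3 and between 71.7 and 88.3 in the other libraries. The third, from 47403465 to 47405375, stood at 95.6 and 97.6 in 3T3, 97.0 and 89.2 in E14, and 27.5 and 79.5 in P19.

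The shared regions with the highest mean percentile over all libraries lay in the second run. They ran from 47702016 to 47705496, from 47693162 to 47702005 and from 47712214 to 47716496, with widths of 3481, 8844 and 4283 bp. The first of them scored 406.5 and 569 in 3T3, 2471 and 1659 in E14, and 3100 in both P19 libraries. This was percentile 91.0 and 86.6 in the 3T3 lists and 97.8 to 99.4 in the other lists.

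The 5 regions of the chromosome 6 window found in both 3T3 libraries alone were of middling rank, between percentiles 17.2 and 62.4. The first 3 lay from 48345226 to 48346412, from 47762856 to 47763912 and from 49164837 to 49165886, with scores of 107 and 225, 99.8 and 230.5, and 80.4 and 143. The 21 regions of all E14 and P19 libraries without 3T3 peaks had median percentiles of 75.9 and 61.5 in E14 and 61.0 and 73.6 in P19, with lowest values of 1.22 to 21.8 by library. The highest of them, from 45435399 to 45436504, scored 1187 and 915 in E14 and 2572 and 3100 in P19. The next ones lay from 46237266 to 46238384, at percentiles 93.0 to 97.8, and from 48122303 to 48123243, at 88.7 to 96.1. The first pair of the 3 lies in the lower part of the window, where the 3T3 lists are nearly empty.

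The order of the shared regions by score was most alike within a line. On chromosome 12 the order in 3T3 was about as like that in E14 as E14 was like P19, whereas on chromosome 6 the order in 3T3 was unlike that in both other lines. These are Spearman correlations across regions, which share libraries and are not independent replicates. Over the 31 shared regions of chromosome 12 the value was 0.92 between the 3T3 libraries, 0.81 between the E14 libraries and 0.96 between the P19 libraries. Between 3T3 and E14 libraries it was 0.50 to 0.70, and between 3T3 and P19 libraries 0.21 to 0.26. Over the 40 shared regions of chromosome 6 it was 0.90, 0.85 and 0.90 within the lines. It was -0.27 to -0.08 between 3T3 and E14 libraries and -0.30 to -0.25 between 3T3 and P19 libraries. Between E14 and P19 libraries it was 0.59 to 0.68 on chromosome 12 and 0.56 to 0.68 on chromosome 6.

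The lower bound of the chromosome 12 window fell between sites found in all 6 lists, while at the other bounds the nearest peaks differed more between lists. At 20 Mb on chromosome 12 the last peak outside started between 19960208 and 19960283 in all 6 lists and the first inside between 20076930 and 20077333. The outer peak stood at percentiles 63.7 and 37.5 in 3T3 and 53.9 to 83.1 in the other lists, and the inner one at 3.87 and 72.8 in 3T3 and 73.6 to 95.1 in the others. At 25 Mb the last peak inside started between 24936421 and 24937303 in all lists, and the first outside at 25256703 and 25172892 in 3T3 and between 25048468 and 25067895 in the others. At 45 Mb on chromosome 6 the last peak outside started between 44735033 and 44742897. The first inside started between 45123873 and 45124087 in E14 and P19, but at 46994715 and 46527133 in 3T3. At 50 Mb the last peaks inside started between 49772219 and 49927000 and the first outside between 50015393 and 50146730. Moving the bounds by 1 Mb down or up gave ratios of 1.98 and 1.96 on chromosome 12 and 1.61 and 1.95 on chromosome 6.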

How the data were processed

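The deposited lists hold chromosome, start, end and name of each peak and a score per peak. The score is that of the authors' peak caller, whose names begin with MACS. Its scale, version, threshold and use of input are not given in the sources available. Per the submitters' processing notes, the build was mm9 and the tools were BWA 0.7.13-r1126, SAMtools 1.3, CASAVA 1.8 and bcl2fastq 1.8. Each library has its own list.

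Sample titles gave each library's line and number. Nothing says that the 2 libraries of a line were separate cultures, so their spread may be technical. Members had a deposited start within the window bounds. Positions are printed 1-based. Union regions join peaks of the 6 lists that share at least 1 bp, and a region takes its best peak's percentile. Named regions were the 3 highest of each kind by mean percentile. Members and rules were chosen with earlier results of these data known. No test was run, since the windows were chosen by the 3T3 share and 2 libraries against 4 allow too few rearrangements. Alternatives were other list lengths, units, bounds, overlaps and left-out libraries; leaving out the runs was added after the data were seen. The region code was checked on planted regions. The work used pandas 2.3.3 and NumPy 2.4.6 under Python 3.11.15, with Matplotlib 3.10.9 for figures and SciPy 1.17.1 for intervals and correlations.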

Additional observations from a re-analysis of the deposited data

How the results depend on the processing

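The excess of the 3T3 share depended most on list length. With every list at the length of the shortest the ratio of 3T3 to the other lines was 1.21 for chromosome 12 and 1.18 for chromosome 6. It was 2.14 and 1.82 with whole lists, and 2.15 and 1.91 with the best-scoring 50% of each list. What lowers the ratio at equal length was not tested. Joining peaks within 5 kb gave 1.40 for chromosome 6. Peaks overlapping the other library of the line gave 2.10 there. All ratios computed from means stayed above 1. At equal list length, however, 3T3 replicate 2 alone held 0.226% on chromosome 12, against a mean of 0.228% in the other lines. Under a replicate block, with each 3T3 library set against the same-numbered others, the ratios were 2.08 and 1.81. Leaving out each library gave 1.63 to 2.64 for chromosome 12, the ends being without 3T3 replicate 1 and without 3T3 replicate 2, and 1.63 to 2.01 for chromosome 6. The share of regions with peaks in both 3T3 libraries was 76.1% and 65.3% in lists of equal length. Leaving out a library gave 41.7% to 49.3% and 39.7% to 43.5%, beside 14.5% to 22.2% over all regions. Where a 3T3 library was left out, this is the share with a peak in the remaining one, 22.2% over all regions without replicate 1.

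The percentile difference kept its sign in the settings tried, which did not leave out the runs. Without peaks at the tied score it was 38.4 for P19 replicate 1 on chromosome 12, and 16.7 for 3T3 replicate 2 and 12.4 for P19 replicate 2 on chromosome 6. Ranked within chromosome 6 it was 16.8 and 18.4 for the 3T3 libraries. Among peaks that overlap the other library of the line, the width difference on chromosome 12 was 2.5 bp for 3T3 replicate 1, against 25 bp, 304.5 bp for replicate 2, against 475 bp, and 567 bp for P19 replicate 2. On chromosome 6 it was 168 bp for 3T3 replicate 2, 248 and 225 bp for E14, and 135.5 and 199 bp for P19. Read depth is unknown and limits what the absence of a peak shows.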
